A study of Homo sapiens with 4 samples.

Results

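The comparison described here sets 1 RNA-sequencing library of HepG2 cells labelled as treated with TGF-beta1 against 1 library of HepG2 cells infected with a control hairpin. HepG2 is a human liver cancer line that keeps much of the hepatocyte programme. The genes described are the 8575 of 23368 whose mean value over the 4 libraries of the series was at least 20.

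TGF-beta1 is a secreted cytokine that signals through paired serine/threonine kinase receptors. The receptors phosphorylate SMAD2 and SMAD3, which join SMAD4, enter the nucleus and bind DNA at short elements with the core CAGAC. Within the first hour the pathway is known to switch on its own inhibitors, SMAD7 and SKIL, and a set of early transcription factors and secreted factors, while its effects on matrix and cell shape come later.

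The series holds 4 total-RNA libraries of HepG2 cells, 1 per condition. The library called shCtrl came from cells infected with a lentiviral control short hairpin RNA, and shPJA1 from cells infected with a hairpin against PJA1, a RING-type ubiquitin ligase. The library called TGFb1 was labelled as treated with TGF-beta1, which the protocol gives as 200 pM for 1 hour. The last library is titled shPJA/TGFb1, but water is given as its treatment, and a control stands in its place in the design text. It is called here by its title. The labels do not say that the TGFb1 cells carried a control hairpin, so the cytokine and the viral infection cannot be told apart in the ratio of TGFb1 to shCtrl. Of the genes left out, 7384 were at 0 in all 4 libraries and 7409 were above 0 with a mean under 20. LMBR1L and FKBP11 lay just outside this limit, at means of 19.94 and 19.95, and CASC5 and BTN2A2 just inside, at 20.03 and 20.04.

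The reads assigned to genes numbered 2848665 in TGFb1 and 1363318 in shCtrl, and 1784689 and 990698 in shPJA1 and shPJA/TGFb1. Values are normalized counts, that is, each gene's reads after division by a library's size factor, and they are not scaled by gene length. With 1 library a side there is no replicate check and no test. Each ratio of TGFb1 to shCtrl is given with an exact 95% interval of a ratio of 2 read counts, which covers counting error only. A gene is said to be called higher or lower where the ratio reached 1.5-fold and this interval excluded 1. Markers of HepG2 were present, with ALB at 3328 in TGFb1 and 3617 in shCtrl and AFP at 347 in TGFb1 and 387 in shCtrl. Of 12 endothelial markers, 7 were at 0 in all 4 libraries, among them CDH5, KDR and EMCN, and so were 7 of 15 leukocyte markers, among them PTPRC and CD3E, and 4 of 12 stellate cell and fibroblast markers, among them DCN and LUM. No endothelial marker reached a mean of 20. LYZ and CD68 of the leukocyte markers did, at 978 and 95.1 in TGFb1 and 1343 and 168 in shCtrl. ACTA2 of the stellate cell and fibroblast markers did too, at 175 in TGFb1 and 185 in shCtrl. PJA1, the target of the hairpin, was at 38.2 in TGFb1, 50.3 in shCtrl, 15.3 in shPJA1 and 9.78 in shPJA/TGFb1, and its ratio of TGFb1 to shCtrl was 0.759 (0.510 to 1.14), whose interval holds 1.

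Regulatory sequences are shown for 5 genes to which the results below return. SMAD7, CTGF, EDN1 and LSAMP were called higher in TGFb1, and RASD1 was called lower. Each line gives the 250 bases before the gene's most upstream RefSeq start on GRCh38.p14, on the gene's strand and 5′ to 3′. Capitals mark 2 motifs, searched on both strands. CAGAC is the core of the SMAD-binding element, and GGAATG is the core of sites bound by TEAD factors. The windows lie at chr18:48950966-48951215 on the minus strand, chr6:131951373-131951622 on the minus strand, chr6:12287769-12288018 on the plus strand, chr3:116445488-116445737 on the minus strand and chr17:17496396-17496645 on the minus strand.
SMAD7: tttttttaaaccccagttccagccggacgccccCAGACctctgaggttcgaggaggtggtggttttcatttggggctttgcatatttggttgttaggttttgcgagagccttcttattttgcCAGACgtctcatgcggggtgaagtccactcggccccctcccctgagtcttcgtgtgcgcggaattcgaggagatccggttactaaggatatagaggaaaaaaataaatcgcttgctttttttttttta
CTGF: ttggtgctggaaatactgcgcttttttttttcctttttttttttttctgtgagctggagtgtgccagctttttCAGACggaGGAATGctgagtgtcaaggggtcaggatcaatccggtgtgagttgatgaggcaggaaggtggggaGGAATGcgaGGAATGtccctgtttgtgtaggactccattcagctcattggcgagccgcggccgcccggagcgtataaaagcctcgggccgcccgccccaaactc
EDN1: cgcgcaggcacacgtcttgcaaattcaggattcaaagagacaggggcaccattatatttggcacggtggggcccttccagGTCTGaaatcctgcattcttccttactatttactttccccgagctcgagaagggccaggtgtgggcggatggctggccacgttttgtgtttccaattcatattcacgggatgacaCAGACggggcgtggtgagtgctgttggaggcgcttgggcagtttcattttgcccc
LSAMP: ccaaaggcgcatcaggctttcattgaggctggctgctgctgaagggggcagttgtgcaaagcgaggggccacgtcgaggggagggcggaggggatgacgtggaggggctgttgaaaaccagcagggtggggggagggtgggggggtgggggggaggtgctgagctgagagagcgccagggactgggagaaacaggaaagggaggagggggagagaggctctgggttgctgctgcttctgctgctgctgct
RASD1: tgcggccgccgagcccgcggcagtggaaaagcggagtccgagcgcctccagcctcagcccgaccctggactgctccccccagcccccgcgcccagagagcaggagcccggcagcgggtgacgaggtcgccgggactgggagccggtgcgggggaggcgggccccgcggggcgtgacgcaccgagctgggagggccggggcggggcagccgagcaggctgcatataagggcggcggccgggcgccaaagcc

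The SMAD7 window holds CAGAC at 2 places, the EDN1 window at 2 and the CTGF window at 1. Only the CTGF window of the 5 holds GGAATG, at 3 places. The LSAMP and RASD1 windows hold neither motif, which says only that these letters are not in them. The windows of GADD45B and ADM, also called higher, were searched too and hold no CAGAC. SMAD7 and EDN1 have further starts in RefSeq, whose windows hold CAGAC at 0 to 3 places. Among 35116 RefSeq windows of this length CAGAC occurs in 38.0% and GGAATG in 11.9%. The palindrome GTCTAGAC, a SMAD-binding sequence built from GTCT and its complement AGAC, which does not hold CAGAC, occurs in 0.182% of windows and in none of the 5 shown. A match is a description of the letters and not of a bound site.

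Between TGFb1 and shCtrl, 236 of 8575 genes were called higher and 367 lower, which is 2.75% and 4.28% of the genes and 7.03% together. At 2-fold there were 34 higher and 82 lower genes, or 0.397% and 0.956%. The median log2 ratio of all 8575 genes was 0.018, with 4491 genes above a ratio of 1 and 4084 below. Most differences were small and most called genes were read at low depth. Of the genes called lower, 197 had a mean between 20 and 50, and of those called higher, 86. At a mean of 100 or more, which 4007 genes reached, there were 49 called higher and 57 called lower, or 1.22% and 1.42%. At this level LSAMP drops out, with a mean under 100, and SMAD7 was the only gene higher by 2-fold, while IER3, HIST1H4E, RPPH1 and RASD1 were the only genes lower by 2-fold.

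**Figure D1:**
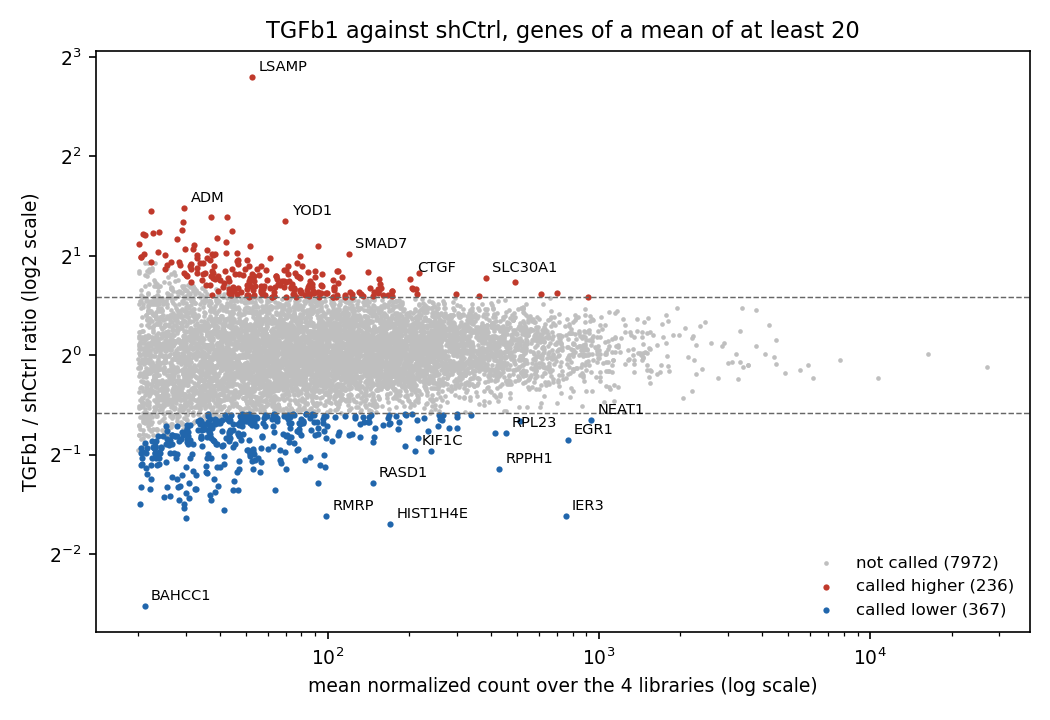
Ratio of the normalized count in TGFb1 to that in shCtrl (vertical axis, log2 scale) against the mean normalized count over the 4 libraries (horizontal axis, log scale) for 8575 genes. Each point is a gene, grey where not called, red for the 236 called higher and blue for the 367 called lower; dashed lines mark 1.5-fold. LSAMP stands alone at the top with a ratio of 6.95. IER3 lies low at 0.33, with HIST1H4E at 0.31 and BAHCC1 at 0.17 below it.

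The ratio of TGFb1 to shCtrl moved with the GC content of the transcripts. Over 8463 genes with a matched transcript the rank correlation across genes was -0.41, and genes of 1 library share its preparation, so they are not independent. In the quintile of lowest GC content, 106 genes were called higher and 15 lower, with a median log2 ratio of 0.20. In the quintile of highest GC content the counts were 26 and 172, with a median of -0.15. Transcripts of called genes had a median GC content of 42.7% where higher and 57.6% where lower, against 48.6% over all. The pair shPJA/TGFb1 over shPJA1 showed the opposite slope, with a rank correlation of 0.26. Length moved less, with a rank correlation of 0.10. With a lowess trend on GC content subtracted, 177 of 8463 genes were called higher and 266 lower, or 2.09% and 3.14%. Of the genes called as deposited, 120 of 236 and 220 of 367 kept their call, where 235 and 349 of them had a matched transcript. Below, the ratio after this subtraction is given for genes that lose their call by it, and the part of GC content in any single gene's ratio was not tested.

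**Figure D2:**
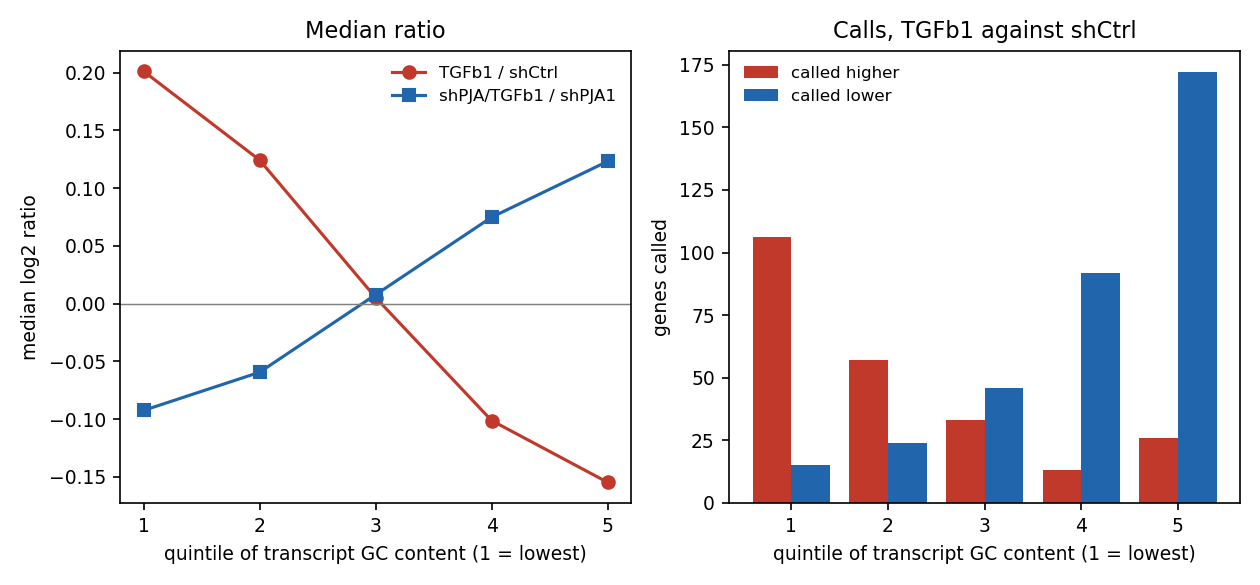
Left, the median log2 ratio (vertical axis) of genes in each quintile of transcript GC content (horizontal axis, 1 is the lowest), for TGFb1 over shCtrl (red circles) and for shPJA/TGFb1 over shPJA1 (blue squares); right, the number of genes called higher (red bars) and lower (blue bars) in TGFb1 against shCtrl. The red line falls from 0.20 to -0.15 while the blue line climbs from -0.09 to 0.12.

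No ligand, receptor or SMAD transducer on the lists was called. Of 10 ligands and latent binders read at a mean of at least 20, 8 receptors and 19 SMAD proteins and adaptors, none was called in either direction, against 2.75% higher and 4.28% lower over all genes. The type II receptor gene TGFBR2 had 2338 in TGFb1 and 2069.9 in shCtrl, a ratio of 1.13 (1.07 to 1.2), and TGFBR1 had a ratio of 1.04 (0.843 to 1.29). The transducers SMAD2, SMAD3 and SMAD4 had ratios of 1.25 (1.06 to 1.48), 1.04 (0.925 to 1.17) and 1.02 (0.863 to 1.2). SPTBN1, a spectrin that acts as a SMAD adaptor, was at 0.971 (0.943 to 0.999). Follistatin, FST, a secreted trap for activins, was at 353 in TGFb1 and 265 in shCtrl and a ratio of 1.33 (1.14 to 1.56), an interval that excludes 1 short of 1.5-fold. It was at 242 in shPJA1 and 363 in shPJA/TGFb1, so both libraries titled with TGFb1 were above both others. This order held for 16.4% of all genes.

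Of 22 negative regulators of SMAD signalling, 2 were called higher and 0 lower, against 2.75% higher and 4.28% lower over all genes. Their median log2 ratio was 0.14 as deposited and -0.058 with the GC trend subtracted. SMAD7, the inhibitory SMAD that blocks the receptors, was read at 168 in TGFb1, 83.0 in shCtrl, 69.3 in shPJA1 and 158 in shPJA/TGFb1. Its ratio of TGFb1 to shCtrl was 2.02 (1.56 to 2.66), and after subtraction of the GC trend 2.20. SKIL, a corepressor bound to SMADs, was read at 254 in TGFb1, 160.1 in shCtrl, 202 in shPJA1 and 229.8 in shPJA/TGFb1, with a ratio of 1.59 (1.31 to 1.94) that lay under 1.5-fold after the subtraction, at 1.36. TGFb1 was the highest library for both genes. SKI, the relative of SKIL, went the other way without being called, at 0.762 (0.621 to 0.936). NEDD4L, a ubiquitin ligase for activated SMADs, was at 1.28 (1.12 to 1.47) and SMURF1 and SMURF2 at 1.11 (0.902 to 1.37) and 1.39 (1.16 to 1.66). TGIF1, a homeodomain corepressor, was at 1.25 (0.994 to 1.58) and BAMBI, a pseudoreceptor, at 1.32 (0.815 to 2.20). LRP1 was lower without reaching the fold, at 0.671 (0.580 to 0.777). PMEPA1, an inhibitor induced by TGF-beta, had 12 reads in TGFb1 and 1 in shCtrl and a ratio of 5.85 whose interval, from 0.865 upwards, holds 1.

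Among 25 early transcription factor and cell-cycle targets of TGF-beta, 2 were called higher and 0 lower, against 2.75% and 4.28% over all genes. Their median log2 ratio was 0.20 against 0.018 over all genes. The called members were GADD45B, a stress-induced signalling protein, and ATF3, a stress-induced factor of the CREB family. GADD45B was read at 41.6 in TGFb1, 19.9 in shCtrl, 18.9 in shPJA1 and 47.3 in shPJA/TGFb1, with a ratio of 2.09 (1.22 to 3.78). Both libraries titled with TGFb1 were above both others. ATF3 was read at 117 in TGFb1, 70.1 in shCtrl, 73.8 in shPJA1 and 83.1 in shPJA/TGFb1, with a ratio of 1.67 (1.25 to 2.27), and TGFb1 was the highest library. KLF10, the TGF-beta-inducible early gene, came close to 1.5-fold at 1.47 (1.29 to 1.67), and BHLHE40, a repressor of the clock and differentiation, was at 752 in TGFb1 and 552 in shCtrl with a ratio of 1.36 (1.23 to 1.52). HES1, a Notch and BMP target, was at 1.49 (0.992 to 2.30) and reached 1.51 and a call after the GC subtraction. JUNB and SOX9 were not higher, at 0.946 (0.668 to 1.35) and 0.747 (0.683 to 0.818), and CDKN1A, which encodes the CDK inhibitor p21, was at 0.926 (0.870 to 0.985).

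Of 25 secreted and signalling targets 21 had a ratio above 1. Called higher were 5 and lower 1, against 2.75% and 4.28% over all genes. CTGF, a matricellular protein, was read at 231 in TGFb1, 136 in shCtrl, 169 in shPJA1 and 272 in shPJA/TGFb1, with a ratio of 1.71 (1.38 to 2.11). CYR61, its relative, was read at 138 in TGFb1, 77.1 in shCtrl, 75.6 in shPJA1 and 145 in shPJA/TGFb1, with a ratio of 1.79 (1.36 to 2.39). For both genes the libraries titled with TGFb1 were above the others. SGK1, a serum- and glucocorticoid-regulated kinase, was at 66.1 in TGFb1 and 36.2 in shCtrl, a ratio of 1.82 (1.22 to 2.80). Endothelin-1, EDN1, a vasoactive peptide, was at 59.2 in TGFb1, 29.2 in shCtrl, 26.1 in shPJA1 and 39.1 in shPJA/TGFb1, with a ratio of 2.03 (1.30 to 3.27). AMOTL2, an angiomotin that holds YAP in the cytoplasm, was at 105 in TGFb1 and 56.1 in shCtrl, a ratio of 1.87 (1.35 to 2.62). Integrin alpha V, ITGAV, and thrombospondin 1, THBS1, were at 1.23 (1.14 to 1.33) and 1.31 (1.11 to 1.55). Sphingosine kinase 1, SPHK1, was the 1 member called lower, at 170.3 in TGFb1 and 258 in shCtrl and 0.659 (0.552 to 0.788), and it lost that call after the GC subtraction, at 0.751.

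The small list of BMP and SMAD1/5 targets had the highest median of all lists, 0.48, from 8 genes. SMAD7 was among the 3 that were called higher, and 0 were called lower. The shares over all genes were 2.75% higher and 4.28% lower. ID1 and ID2 encode inhibitors of basic helix-loop-helix factors. ID1 was read at 76.3 in TGFb1, 45.6 in shCtrl, 62.1 in shPJA1 and 86.4 in shPJA/TGFb1, a ratio of 1.67 (1.16 to 2.46), and ID2 at 91.1 in TGFb1, 50.3 in shCtrl, 74.7 in shPJA1 and 63.6 in shPJA/TGFb1, a ratio of 1.81 (1.29 to 2.60). For ID1 the library titled shPJA/TGFb1 was higher still, while for ID2 it lay below shPJA1. ID3 went the other way at 0.704 (0.420 to 1.2) and HEY1 was at 0.725 (0.475 to 1.12), both with intervals that hold 1. Targets of YAP and TEAD, which share CTGF, CYR61, AMOTL2 and GADD45B with the lists above, had 5 members called higher and 0 lower of 25, with a median of 0.24. The further member was MYOF, the membrane-repair protein myoferlin, at 109.9 in TGFb1, 51.4 in shCtrl, 126 in shPJA1 and 79.9 in shPJA/TGFb1. Its ratio was 2.14 (1.53 to 3.04), and shCtrl was the lowest library.

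**Figure D3:**
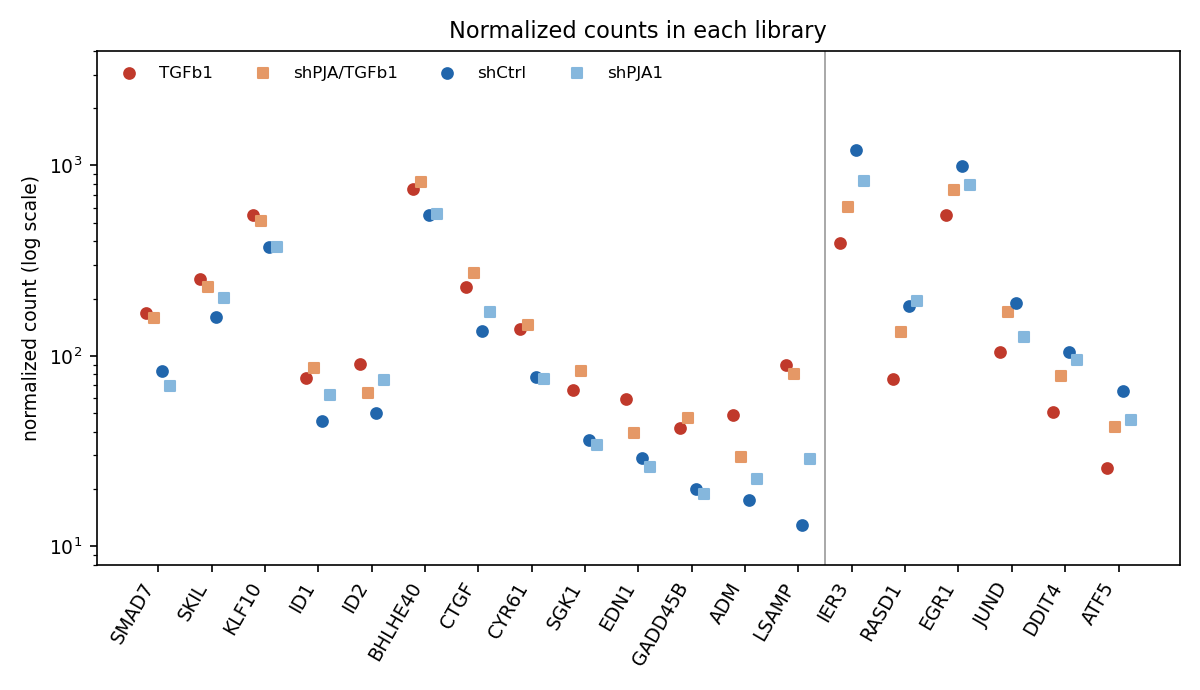
Normalized count (vertical axis, log scale) of 19 genes in TGFb1 (red circles), shPJA/TGFb1 (orange squares), shCtrl (dark blue circles) and shPJA1 (light blue squares), 1 point per library. Left of the line are targets of TGF-beta with ADM and LSAMP. Every gene there but ID2 has both TGFb1-titled libraries above both others. Right of the line are genes lower in TGFb1, where TGFb1 is the lowest library for all 6. The 19 genes were picked for display with their values known, so nothing is read from these orders. Of all 236 genes called higher, 98 have both TGFb1-titled libraries above both others.

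The largest ratio on the higher side belonged to LSAMP, a cell adhesion protein of the IgLON family known from the limbic system. It was read at 89.4 in TGFb1, 12.9 in shCtrl, 28.8 in shPJA1 and 79.9 in shPJA/TGFb1, from 157 reads in TGFb1 against 11 in shCtrl, a ratio of 6.95 (3.78 to 14.2). ADM, adrenomedullin, a vasodilator peptide induced by hypoxia, followed at 49.0 in TGFb1, 17.5 in shCtrl, 22.5 in shPJA1 and 29.3 in shPJA/TGFb1, a ratio of 2.79 (1.60 to 5.21). Both of these had TGFb1 as the highest and shCtrl as the lowest library. PSMC6, an ATPase of the proteasome base, was at 2.73 (1.38 to 6.0), and ZNF654, a zinc-finger gene, at 2.62 (1.59 to 4.52). YOD1, a deubiquitinase, was read at 104 in TGFb1, 40.9 in shCtrl, 67.5 in shPJA1 and 66.8 in shPJA/TGFb1, a ratio of 2.55 (1.77 to 3.77), and the bound of its interval nearest to 1 was the farthest from 1 after that of LSAMP. ABCA5, a lipid transporter of lysosomes, was at 2.37 (1.5 to 3.9), ARAP2, a GTPase-activating protein for ARF6, at 2.40 (1.37 to 4.51) and SRD5A1, steroid 5-alpha-reductase, at 2.36 (1.29 to 4.68). RAB30, a small GTPase of the Golgi, was at 2.33 (1.12 to 5.43) and THOC1, a subunit of the THO mRNA export complex, at 2.14 (1.43 to 3.30). HTR2B and FAIM, at 2.31 (1.06 to 5.74) and 2.17 (1.11 to 4.63), lost their call after the GC subtraction, at 2.01 and 1.85.

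Genes read at a mean of 100 or more included metal transporters. SLC30A1, the zinc exporter of the plasma membrane, was read at 484 in TGFb1, 282 in shCtrl, 361 in shPJA1 and 406 in shPJA/TGFb1, a ratio of 1.72 (1.49 to 1.99) that was 1.46 after the GC subtraction. SLC40A1, ferroportin, the iron exporter, was read at 569 in TGFb1, 342 in shCtrl, 524 in shPJA1 and 523 in shPJA/TGFb1, a ratio of 1.66 (1.46 to 1.90), and shCtrl lay below the other 3, which were close together. ARHGAP29, a GTPase-activating protein for RhoA, was at 269 in TGFb1 and 152 in shCtrl and 1.77 (1.46 to 2.17). PPM1D, the phosphatase WIP1, was at 199 in TGFb1 and 117 in shCtrl and 1.7 (1.36 to 2.15). DUSP1, a phosphatase that switches off MAP kinases, was at 141 in TGFb1 and 78.3 in shCtrl and 1.80 (1.37 to 2.40). Further genes were read at a mean of at least 300. NRIP1, a nuclear receptor corepressor, was at 1.5 (1.37 to 1.65), the adaptor gene YWHAZ at 1.54 (1.40 to 1.71) and KYNU, an enzyme of tryptophan breakdown, at 1.53 (1.37 to 1.71). Together with SLC30A1, SLC40A1 and C1orf9 these made up the 6 genes called higher at that depth. Of the 6 only SLC40A1 kept its call after the GC subtraction, with NRIP1, YWHAZ and KYNU then at 1.29, 1.43 and 1.32.

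IER3, an immediate early gene that modulates survival and ERK signalling, had the interval farthest from 1 on the lower side. It was read at 390.1 in TGFb1, 1198 in shCtrl, 825 in shPJA1 and 603 in shPJA/TGFb1, from 685 reads against 1025, a ratio of 0.326 (0.295 to 0.359). RASD1, a Ras-related GTPase induced by glucocorticoids, was read at 75.2 in TGFb1, 184 in shCtrl, 194 in shPJA1 and 134 in shPJA/TGFb1, a ratio of 0.410 (0.323 to 0.520). For both genes the libraries titled with TGFb1 were below both others, with TGFb1 lowest. Both TGFb1-titled libraries were below both others for 14.4% of all genes. Of 24 immediate early genes 3 were called higher and 3 lower, against 2.75% higher and 4.28% lower over all genes. EGR1, a zinc-finger factor induced by growth factors, was read at 549 in TGFb1, 990.0 in shCtrl, 791 in shPJA1 and 738 in shPJA/TGFb1, a ratio of 0.555 (0.505 to 0.609). JUND, an AP-1 subunit, was read at 104 in TGFb1, 191 in shCtrl, 126 in shPJA1 and 169.5 in shPJA/TGFb1, a ratio of 0.547 (0.441 to 0.680). The higher members were ATF3, DUSP1 and ZFP36, which encodes an mRNA decay factor and had a ratio of 1.58 (1.11 to 2.27).

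The response to protein and nutrient stress had 4 members lower and 1 higher among 45 genes, against 2.75% higher and 4.28% lower over all genes, with a median log2 ratio of -0.023. ATF5, a factor of the mitochondrial and integrated stress response, was read at 25.6 in TGFb1, 65.5 in shCtrl, 45.9 in shPJA1 and 42.4 in shPJA/TGFb1, a ratio of 0.392 (0.258 to 0.590). DDIT4, an inhibitor of mTORC1, was read at 50.7 in TGFb1, 105 in shCtrl, 95.4 in shPJA1 and 78.2 in shPJA/TGFb1, a ratio of 0.482 (0.355 to 0.653), and DDIT3, the pro-apoptotic factor CHOP, was at 27.9 in TGFb1 and 46.8 in shCtrl and 0.597 (0.385 to 0.930). CEBPB, at 0.650 (0.503 to 0.842), lost its call after the GC subtraction, at 0.746. The endoplasmic reticulum chaperones HSP90B1 and calnexin were not called, with HSP90B1 at 1.08 (1.01 to 1.16) and calnexin, encoded by CANX, at 0.951 (0.908 to 0.997). Of 33 cytosolic chaperone genes none was called, with HSP90AA1 at 1.30 (1.21 to 1.39) and HSPA8 at 1.23 (1.16 to 1.29). TXNRD1, the NRF2-controlled thioredoxin reductase, was read at 4056 in TGFb1 and 2908 in shCtrl, a ratio of 1.39 (1.33 to 1.46) under the fold. Of 29 genes of the NRF2 and metal list 18 had a ratio above 1, with a median log2 ratio of 0.17, and 1 was called higher and 3 lower, against 2.75% higher and 4.28% lower over all genes. The higher member was the zinc exporter SLC30A1. The lower members included OSGIN1 and the metallothionein MT1E, at 0.631 (0.474 to 0.843) and 0.579 (0.366 to 0.923), and OSGIN1 lost its call after the GC subtraction, at 0.711.

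The RNA components of a pair of ribonucleases were lower in TGFb1. RMRP, the RNA of ribonuclease MRP, was read at 38.2 in TGFb1, 117 in shCtrl, 104 in shPJA1 and 137 in shPJA/TGFb1, a ratio of 0.326 (0.236 to 0.449). RPPH1, the RNA of ribonuclease P, was read at 239 in TGFb1, 527 in shCtrl, 449 in shPJA1 and 502 in shPJA/TGFb1, a ratio of 0.453 (0.395 to 0.518). TGFb1 was the lowest library for both. Of 9 replication-dependent histone genes 0 were called higher and 2 lower, against 2.75% and 4.28% over all genes. HIST1H4E was at 80.3 in TGFb1, 261 in shCtrl, 139 in shPJA1 and 199 in shPJA/TGFb1. HIST1H4C was at 18.8 in TGFb1, 51.4 in shCtrl, 29.7 in shPJA1 and 48.9 in shPJA/TGFb1. Their ratios were 0.308 (0.248 to 0.382) and 0.365 (0.225 to 0.587), and shCtrl was the highest library. HIST1H2AC and HIST1H1E were at 0.882 (0.678 to 1.15) and 1.10 (0.896 to 1.35). The summed normalized count of all 65 histone genes in the table was 618 in TGFb1, 873 in shCtrl, 746 in shPJA1 and 939 in shPJA/TGFb1, lowest in TGFb1. Reads of near-identical histone copies may have been split by the counting.

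Of 19 nuclear and host long noncoding RNAs 0 were called higher and 4 lower, against 2.75% higher and 4.28% lower over all genes. These were RMRP and RPPH1 again with NEAT1, the scaffold of paraspeckles, and SNHG5, a host of small nucleolar RNAs. NEAT1 was read at 752 in TGFb1, 1182 in shCtrl, 1093 in shPJA1 and 714 in shPJA/TGFb1, a ratio of 0.637 (0.586 to 0.692), and both libraries titled with TGFb1 were below both others. SNHG5 was at 21.6 in TGFb1 and 56.1 in shCtrl and 0.386 (0.245 to 0.603). MALAT1, another nuclear RNA, was level at 1.01 (0.988 to 1.03). KCNQ1OT1, an imprinted antisense RNA, was at 0.724 (0.668 to 0.785) and called only after the GC subtraction, at 0.663. Among splicing regulators 1 of 43 was called higher and 3 lower. CLK1, a kinase of SR proteins, was read at 103 in TGFb1, 164 in shCtrl, 180.1 in shPJA1 and 96.2 in shPJA/TGFb1, a ratio of 0.626 (0.50 to 0.787), and again both libraries titled with TGFb1 were below both others. SRPK2, another SR protein kinase, was higher at 1.74 (1.19 to 2.61). The counting is not stated to use strand, so reads of an antisense gene and of its partner cannot be told apart.

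Hepatocyte genes leaned lower in TGFb1. Of 14 hepatocyte identity markers read at a mean of at least 20 all had a ratio below 1, with a median log2 ratio of -0.38. Called lower were 3 of the 14, against 4.28% of all genes. The summed normalized count of the markers was 33875 in TGFb1 against 37946, 39808 and 38809.6 in shCtrl, shPJA1 and shPJA/TGFb1. APOB made up most of it, at 24416 in TGFb1 and 26518 in shCtrl. HNF4A, the nuclear receptor that maintains hepatocyte identity, was read at 205 in TGFb1, 341 in shCtrl, 295 in shPJA1 and 359 in shPJA/TGFb1, a ratio of 0.601 (0.513 to 0.703). Of 41 secreted hepatocyte proteins, a list that overlaps the identity markers, 35 had a ratio below 1. Called higher were 0 and lower 4, against 2.75% and 4.28% over all genes. The fibrinogen chains FGA and FGG, called members of both lists, were at 0.517 (0.343 to 0.780) and 0.660 (0.473 to 0.923). The coagulation factors F2, prothrombin, and F7 were at 0.659 (0.575 to 0.755) and 0.374 (0.207 to 0.665). F2 was not called after the GC subtraction, at 0.723. ALB and APOB were not called, at 0.920 (0.881 to 0.961) and 0.921 (0.906 to 0.936), and SERPINA1, alpha-1-antitrypsin, at 0.845 (0.808 to 0.885).

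Among 27 hepatocyte transcription factors 1 was called higher and 3 lower, against 2.75% and 4.28% over all genes. Their median log2 ratio was -0.14, and -0.014 after the GC subtraction. Beside HNF4A the lower members were CEBPA and CEBPB, and CEBPA at 0.642 (0.420 to 0.988) also lost its call after the subtraction, at 0.736. HNF4G, the paralogue of HNF4A, went the other way at 1.77 (1.13 to 2.88) and was not called after the subtraction, at 1.55. G6PC, the glucose-6-phosphatase of gluconeogenesis, was at 38.7 in TGFb1 and 76.0 in shCtrl and 0.510 (0.357 to 0.728), and SLC13A5, the citrate importer of hepatocytes, at 41.0 in TGFb1, 105 in shCtrl, 52.2 in shPJA1 and 57.0 in shPJA/TGFb1 and 0.390 (0.282 to 0.537). Its value in shCtrl stood above the other 3 libraries. In sterol and fatty acid synthesis 5 of 34 genes were called lower, among them SREBF1, MVD, PMVK and NSDHL, and 2 higher, MSMO1 and ABCA5. PMVK, phosphomevalonate kinase, was at 0.382 (0.227 to 0.638) and MSMO1, a sterol methyl oxidase, at 1.55 (1.14 to 2.13). The enzymes called as deposited thus did not share a direction. MSMO1, SREBF1 and MVD lost their calls after the GC subtraction, at 1.32, 0.660 and 0.581. The calls that then stood were 2 lower, PMVK and NSDHL, and 1 higher, the lipid transporter ABCA5.

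Genes of oxidative phosphorylation leaned lower in TGFb1 than in shCtrl. Of 71 nuclear-encoded subunits 50 had a ratio below 1, with a median of -0.17, and 2 were called higher and 10 lower. The summed normalized count of all 77 listed genes was 8669 in TGFb1, 9209 in shCtrl, 8556 in shPJA1 and 8601 in shPJA/TGFb1, highest in shCtrl. The background over all genes was 4.28% lower and 2.75% higher. The complex I subunits NDUFS5 and NDUFS6 were read at 48.4 in TGFb1, 101 in shCtrl, 58.5 in shPJA1 and 60.3 in shPJA/TGFb1 and at 59.8 in TGFb1, 122 in shCtrl, 88.2 in shPJA1 and 75.0 in shPJA/TGFb1. Their ratios were 0.482 (0.353 to 0.658) and 0.492 (0.372 to 0.652), and shCtrl was the highest library for both. ATP5G1, a subunit of ATP synthase, was at 0.548 (0.365 to 0.826). The higher members were NDUFA5 at 1.99 (1.04 to 4.11) and NDUFB11 at 1.76 (1.03 to 3.15), and NDUFA5 lost its call after the GC subtraction, at 1.64. Cytosolic ribosomal protein genes had a median of -0.039 over 63 genes, of which 2 were called higher and 4 lower. RPL23 was read at 345 in TGFb1, 593 in shCtrl, 459 in shPJA1 and 417 in shPJA/TGFb1, a ratio of 0.582 (0.517 to 0.657). Processed copies of ribosomal protein genes may share reads with them.

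**Figure D4:**
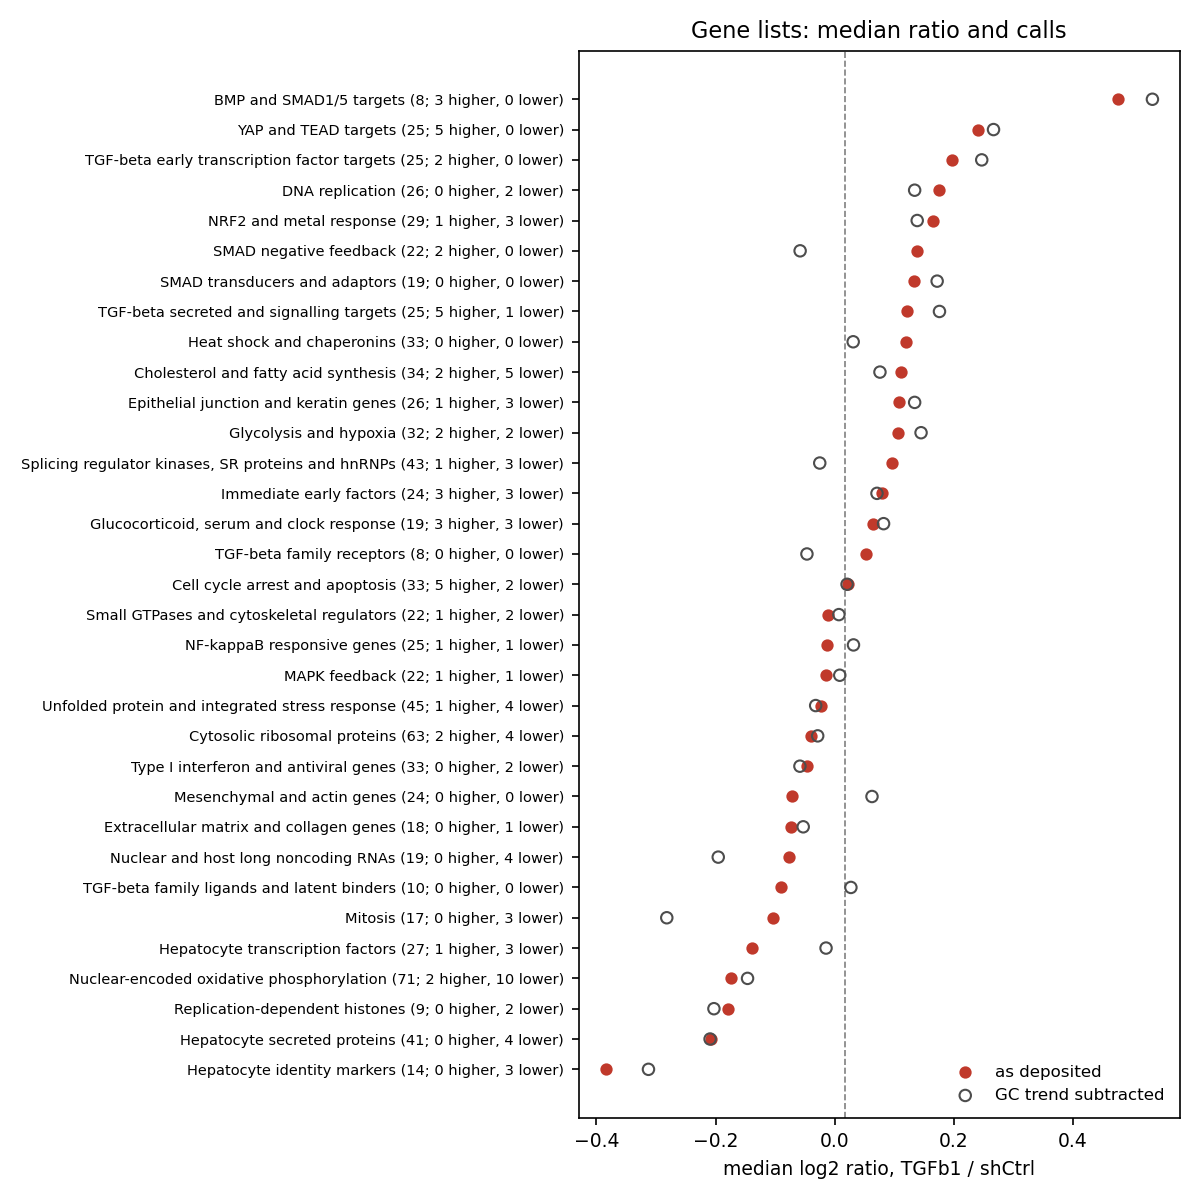
Median log2 ratio of TGFb1 to shCtrl (horizontal axis) for each of 33 gene lists with at least 5 members at a mean of at least 20 (vertical axis; in brackets the members and how many were called higher and lower), as deposited (red) and with the GC trend subtracted (open circles); the dashed line is the median of all 8575 genes. BMP, YAP and early TGF-beta targets lie at the top, at 0.48, 0.24 and 0.20. The lists of hepatocyte identity markers and secreted proteins lie at the bottom, at -0.38 and -0.21. These lists overlap, with FGA and FGG among the shared members, and are not separate observations.

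Over all genes 2.75% were called higher and 4.28% lower, and cell-cycle lists are given beside these shares. Of 26 replication genes 0 were called higher and 2 lower, the kinase CDC7 at 0.515 (0.347 to 0.764) and the polymerase subunit POLD2 at 0.564 (0.381 to 0.837). The replication median log2 ratio was 0.18 as deposited and 0.13 with the GC trend subtracted, and 15 genes had a ratio above 1 and 11 below. Of 17 mitosis genes 0 were called higher and 3 lower, among them PRC1, a crosslinker of the spindle midzone, at 0.561 (0.343 to 0.923) and the proliferation marker MKI67 at 0.645 (0.462 to 0.904). The mitosis median was -0.10 as deposited and -0.28 with the GC trend subtracted. Of 33 genes of arrest and apoptosis 5 were called higher and 2 lower. BAX, a pro-apoptotic BCL2 protein, was read at 21.6 in TGFb1, 46.8 in shCtrl, 25.2 in shPJA1 and 48.9 in shPJA/TGFb1, a ratio of 0.463 (0.289 to 0.740). The higher members were GADD45B, PMAIP1, FAS, PLK2 and CCNG2. The death receptor FAS was at 1.61 (1.19 to 2.22), the kinase PLK2 at 1.57 (1.26 to 1.98) and NOXA, encoded by PMAIP1, at 1.63 (1.19 to 2.26). FAS, PMAIP1 and CCNG2 lost their calls after the GC subtraction, at 1.44, 1.45 and 1.62. MDM2, a ubiquitin ligase, was level at 0.995 (0.936 to 1.06).

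Genes of inflammation and antiviral defence were called about as often as all genes, of which 2.75% were higher and 4.28% lower. Of 33 interferon-induced and antiviral genes 0 were called higher and 2 lower, IFI35 at 13.7 in TGFb1 and 26.9 in shCtrl and IFITM3, a membrane protein that blocks viral entry, at 52.4 in TGFb1 and 81.8 in shCtrl. Their ratios were 0.508 (0.275 to 0.943) and 0.640 (0.464 to 0.887), and neither was called after the GC subtraction, at 0.559 and 0.711. The antiviral genes ADAR, TRIM25 and PARP14 were at 0.956 (0.845 to 1.08), 0.918 (0.812 to 1.04) and 1.08 (0.951 to 1.23). Of 25 NF-kappaB responsive genes 1 was called higher and 1 lower, the kinase RIPK2 at 1.60 (1.11 to 2.33), which was 1.44 and not called after the GC subtraction, and IER3. NFKBIA, the inhibitor that NF-kappaB switches on, was at 0.794 (0.703 to 0.897), and SOD2, mitochondrial superoxide dismutase, at 0.991 (0.893 to 1.10). BIRC3, an inhibitor of apoptosis, was at 1.40 (1.22 to 1.60). Of 22 MAP kinase feedback genes 1 was called higher and 1 lower, and SPRY4, an inhibitor of receptor tyrosine kinase signalling, was at 671 in TGFb1 and 955 in shCtrl, a ratio of 0.703 (0.642 to 0.769).

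TGF-beta is known to remodel junctions and the cytoskeleton at later times. Of 26 epithelial junction and keratin genes 1 was called higher and 3 lower, against 2.75% higher and 4.28% lower over all genes. The lower members were CTNND1, p120 catenin, at 13.7 in TGFb1, 37.4 in shCtrl, 26.1 in shPJA1 and 35.9 in shPJA/TGFb1, GJB1, the gap junction protein connexin 32, at 21.1 in TGFb1, 53.8 in shCtrl, 56.7 in shPJA1 and 55.4 in shPJA/TGFb1, and CLDN6, a claudin, at 71.8 in TGFb1, 123 in shCtrl, 103 in shPJA1 and 143 in shPJA/TGFb1. Their ratios were 0.365 (0.206 to 0.640), 0.392 (0.247 to 0.618) and 0.585 (0.448 to 0.765), and TGFb1 was the lowest library in each case. The desmosome gene DSP and the tight junction gene TJP1 were level at 0.989 (0.951 to 1.03) and 0.981 (0.903 to 1.07), and PKP2, a desmosomal plakophilin, was higher at 1.71 (1.13 to 2.69). Of 24 mesenchymal and actin genes none was called. Fibronectin, FN1, was at 9648 in TGFb1 and 11288 in shCtrl, a ratio of 0.855 (0.834 to 0.876), and ACTA2, smooth muscle actin, at 0.95 (0.782 to 1.16). Among 18 matrix and collagen genes 1 was called lower, COL9A3 at 0.653 (0.541 to 0.789), which was 0.757 after the GC subtraction. CD68, a lysosomal protein counted with the leukocyte markers, was lower at 0.565 (0.449 to 0.711), and LYZ, lysozyme, was at 0.729 (0.676 to 0.786) and called only after the GC subtraction, at 0.648, while PTPRC was at 0.

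The order of the 4 libraries was counted for the called genes. Of the 236 genes called higher, shCtrl was the lowest of the 4 libraries for 210 and TGFb1 the highest for 181. Of the 367 called lower, shCtrl was the highest for 271 and TGFb1 the lowest for 299. Both libraries titled with TGFb1 were above both others for 98 of the 236, or 41.5%, against 16.4% of all genes, and below both others for 152 of the 367, or 41.4%, against 14.4%. The choice of the genes fixes part of these counts, so nothing is read from them. The pair shPJA/TGFb1 over shPJA1 shares no library with the pair described and differs in TGFb1 by title. In it 102 of the 236 genes were on the same side, or 43.2%, against 50.5% of all 8575 genes above 1, and 164 of the 367, or 44.7%, against 49.5% of all genes below 1. Called in the same direction there were 13 of the 236, where 2.06% of all genes were called higher in that pair, and 10 of the 367, where 2.15% were called lower. The opposite calls numbered 9 and 21. The opposite GC slopes of the pairs stand beside these shares, and their part was not tested.

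The 13 genes called higher in both pairs were LSAMP, SMAD7, GADD45B, SGK1, CYR61, CTGF, ABCA5, ZFP36, LCORL, SLC19A2, SLC36A4, CMTM3 and RPL9. In shPJA/TGFb1 over shPJA1, LSAMP had a ratio of 2.77 (1.74 to 4.47), CTGF 1.61 (1.30 to 1.99) and ZFP36 1.74 (1.24 to 2.43). SLC19A2, a thiamine transporter, was read at 75.2 in TGFb1, 43.2 in shCtrl, 55.8 in shPJA1 and 84.8 in shPJA/TGFb1, and SLC36A4, an amino acid transporter, at 37.6 in TGFb1, 19.9 in shCtrl, 22.5 in shPJA1 and 45.6 in shPJA/TGFb1. Their ratios of TGFb1 to shCtrl were 1.74 (1.2 to 2.58) and 1.89 (1.10 to 3.44), and SLC36A4 and RPL9 lost their calls after the GC subtraction, at 1.60 and 1.45. The 10 called lower in both included NEAT1, CLK1 and DDIT3, with 0.653 (0.584 to 0.729), 0.534 (0.392 to 0.717) and 0.418 (0.203 to 0.793) in the other pair, and ADH6, an alcohol dehydrogenase, at 27.9 in TGFb1, 50.3 in shCtrl, 52.2 in shPJA1 and 21.2 in shPJA/TGFb1. IER3 and RASD1 were on the same side there at smaller size, at 0.731 (0.646 to 0.826) and 0.687 (0.526 to 0.890).

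**Figure D5:**
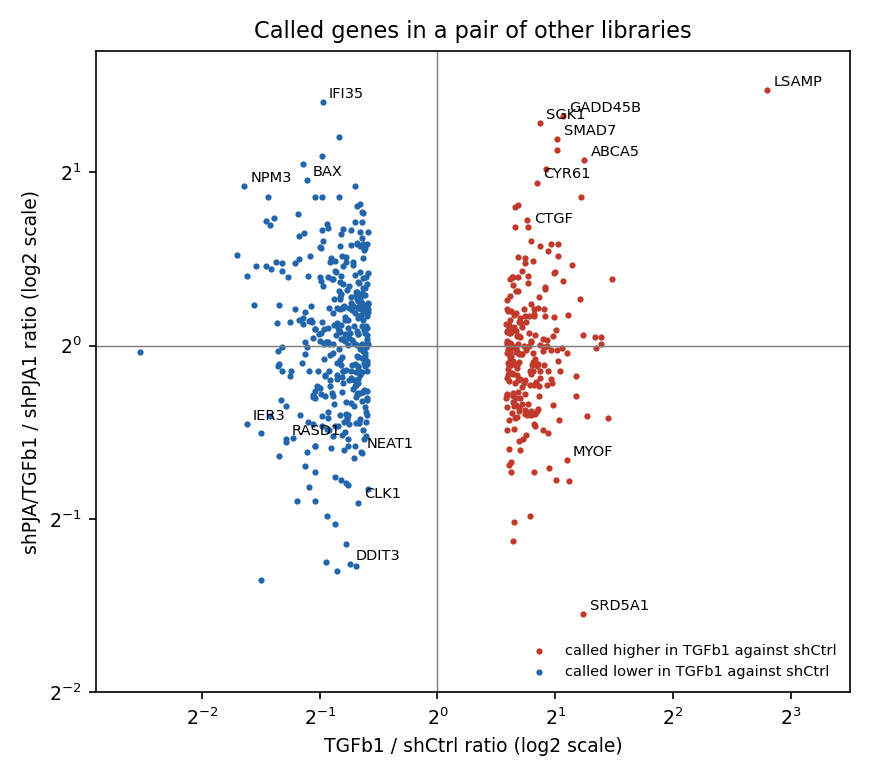
Ratio of shPJA/TGFb1 to shPJA1 (vertical axis, log2 scale) against the ratio of TGFb1 to shCtrl (horizontal axis, log2 scale) for genes called higher (red) or lower (blue) in the latter; each point is a gene. LSAMP, SMAD7, GADD45B, SGK1, ABCA5, CYR61 and CTGF lie at the upper right, while MYOF and SRD5A1 lie below 1 and IFI35, BAX and NPM3 above 1 on the vertical axis.

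A count model needs more than these 2 libraries, so edgeR's quasi-likelihood test was fitted to all 4 with terms for the hairpin and for TGFb1 by title, on 10210 genes. It called 2 genes higher and 2 lower for TGFb1. The model rests on the title of the library whose treatment label says water. Its hairpin term set TGFb1 with shCtrl, though the labels do not say that the TGFb1 cells carried a control hairpin. A difference between infected and uninfected cells would therefore enter the TGFb1 term. Each condition has a single library, so the SE and p below rest on how far libraries depart from the sum of the 2 terms. They measure no spread between replicates. The test returns no SE, so each was computed as the size of the log2 change over the square root of the F statistic. LSAMP and SMAD7 rose, by 2.03 ± 0.30 and 1.09 ± 0.22 (log2 change ± SE), with edgeR adjusted p of 8.59e-08 and 0.00141, and IER3 and RASD1 fell, with log2 changes of -1.06 ± 0.17 and -0.94 ± 0.20 and edgeR adjusted p of 9.05e-07 and 0.0115. With the GC trend as an offset edgeR called 4 higher and 4 lower. The additional genes were CTGF, at 0.73 ± 0.14 (log2 change ± SE; edgeR adjusted p = 0.0433), CYR61, at 0.88 ± 0.17 (edgeR adjusted p = 0.0433), NEAT1, at -0.65 ± 0.10 (edgeR adjusted p = 0.0023), and CLK1, at -0.86 ± 0.16 (edgeR adjusted p = 0.0265). DESeq2 called 0 genes in the same model, with 23 at an unadjusted p under 0.05 against 383 by edgeR.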

How the data were processed

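Total RNA of HepG2 cells was sequenced in 4 libraries, made with an Illumina TruSeq kit, per the labels' protocols. The submitters' processing notes name Trimmomatic, FastQC, Cufflinks and TopHat2 2.0.10 without their settings. The genome build is not given in the sources used here, nor is the annotation. The deposited signal, named FPKM by the authors, was not length-scaled: in each library 100% of values were whole multiples of 1 step within 1e-06, so reads divided by a size factor, and whole reads were recovered from it. 

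Ratios of normalized counts were taken with exact conditional 95% intervals of 2 Poisson counts, which cover counting error only; 3 reads correspond to 1.71 normalized counts in TGFb1 and 3.51 in shCtrl. Replicates are absent, so no spread between samples was measured. List medians used log2 of the normalized count plus 1. GC content and length are medians over GENCODE 29 protein-coding transcripts where a gene has any, matched by symbol or synonym for 98.7% of genes, and the lowess span was 0.3. Promoters are from RefSeq, GRCh38.p14. The edgeR fit (4.0.16, R 4.3.3) took genes with at least 40 reads in total, TMM scaling, quasi-likelihood tests and Benjamini-Hochberg adjustment; DESeq2 1.42.0 used the same terms. Other steps ran in Python 3.11.15 with scipy 1.17.1, statsmodels 0.14.6 and pandas 2.3.3, and were tested on simulated data.

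Genes named are TGF-beta label-check genes, the ends of the ranking at means of 20 and 100 without small RNAs and uncharacterised loci, the 10 each way whose interval lies farthest from 1, and up to 5 called and 3 deep uncalled members of each of 36 lists. Other list members, the genes called in both pairs, those of a mean of at least 300 and the genes of the promoter display were chosen after their values were seen. Members and lists were chosen with earlier results of these data known, and some genes that the rule names are not reported here. Alternatives were other scalings, filters, folds, pseudocounts and a GC correction.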

Additional observations from a re-analysis of the deposited data

Results flagged for a closer look

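The genes below were called in 1 direction in TGFb1 over shCtrl and in the opposite direction in shPJA/TGFb1 over shPJA1, that is, by title, with the PJA1 hairpin. The difference between the pairs was not tested. MYOF had a ratio of 2.14 (1.53 to 3.04) in the first pair and 0.634 (0.448 to 0.883) in the other. For SRD5A1 the ratios were 2.36 (1.29 to 4.68) and 0.342 (0.129 to 0.778). BAX was at 0.463 (0.289 to 0.740) and 1.94 (1.12 to 3.37). For IFI35, an interferon-induced gene, they were 0.508 (0.275 to 0.943) and 2.65 (1.24 to 5.83). IFITM3 was at 0.640 (0.464 to 0.887) and 1.54 (1.06 to 2.23). LY6E, another interferon-induced gene, was at 0.369 (0.210 to 0.640) and 1.81 (1.03 to 3.17). NPM3, a nucleoplasmin of the nucleolus, was at 0.321 (0.190 to 0.534) and 1.89 (1.01 to 3.56). These 7 are the genes named by rule with opposite calls. Over all genes the opposite calls numbered 9 of the 236 higher genes, where 2.15% of all genes were called lower in the other pair. Among the 367 lower genes they numbered 21, where 2.06% of all genes were called higher. IFI35 and IFITM3 lost their call in the first pair after the GC subtraction, at 0.559 and 0.711, and the others kept theirs. The pairs had opposite GC slopes, with rank correlations of -0.41 and 0.26, and their part was not tested.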

How the results depend on the processing

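No paired analysis was possible because each condition has 1 library and the labels give no replicate numbers. Under TMM, total-read and upper-quartile scaling the genes called higher numbered 215, 200 and 184 and those called lower 387, 403 and 433, each within 1.5 times the deposited counts, and the median log2 ratio of all genes stayed between -0.019 and 0.018. With the filter on the mean of the 3 libraries other than shPJA/TGFb1, an alternative added after seeing the data, they numbered 233 and 371. A filter at a mean of 100 gave 49 higher and 57 lower calls, 1 higher and 4 lower at 2-fold, and 9 of 29 lists above the median of all genes against 17 of 33; at a mean of 1 the 2-fold counts were 669 and 1031. A 2-fold limit with the interval gave 34 and 82. With a pseudocount of 5 the 2-fold counts were 14 and 46. With the GC trend subtracted 28 genes named by rule lost their call, 3 gained one, and 7 of 33 list medians moved by over 0.1. The DNA replication median was 0.18 at a mean of 20 and -0.21 at a mean of 1, where fewer reads stand behind each member; the cause was not tested. For the TGFb1 term edgeR called 2 higher and 2 lower genes, 4 and 4 with the GC offset, and DESeq2 called 0 and 0. Depth limits the lowest genes: at a mean between 20 and 50 the median gene had 28 reads in shCtrl.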

Other observations

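Classes of genes read from their symbols, chosen after their values were seen, are given as counts beside 2.75% higher and 4.28% lower over all genes. Of 37 genes with NDUF symbols, given to genes of NADH dehydrogenase, complex I of the respiratory chain, 6 were called lower and 2 higher. Their median log2 ratio was -0.22. The called genes are all members of the oxidative phosphorylation list above, so they are not a further observation. Of 68 mitochondrial ribosomal protein genes 6 were called lower and 2 higher, with a median of -0.14, and after subtraction of the GC trend 4 and 3. Of 230 genes with ZNF symbols, which encode zinc-finger proteins, 12 were called lower and 9 higher, with a median of -0.047, which is 5.22% and 3.91% of them and close to the shares over all genes. The transcripts of these classes had a median GC content of 50.5%, 50.4% and 46.0%.

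Genes of hypoxia and glycolysis gave 2 higher and 2 lower calls of 32, beside the same shares over all genes. Beside ADM the platelet phosphofructokinase PFKP was higher, at 53 in TGFb1, 28.1 in shCtrl, 46.8 in shPJA1 and 58.7 in shPJA/TGFb1, and its ratio was 1.89 (1.19 to 3.09). HIF1A, the hypoxia-inducible factor itself, was at 1.38 (1.26 to 1.52), and the lactate exporter SLC16A3 was lower at 0.579 (0.449 to 0.747). The clock genes NR1D2 and RORA, which encode nuclear receptors, were higher at 1.82 (1.27 to 2.64) and 1.72 (1.18 to 2.56).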
